A study of Mus musculus with 6 samples.

Results

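The MHC class II pathway genes are described here in the obstructed ureter of mice, taken 4 days after it was ligated on 1 side (unilateral ureteral obstruction). The set holds 10 genes and was taken by gene name from the array annotation: the classical chains H2-Aa, H2-Ab1 and H2-Eb1, the invariant chain Cd74, the loading chaperones H2-DMa, H2-DMb1, H2-DMb2, H2-Oa and H2-Ob, and the transactivator Ciita. They were represented by 21 of 56605 probes, and all 10 genes were among the 22260 genes tested. Total RNA of the ureter from 3 mice labelled Col17a1-WT and 3 labelled Col17a1-KO was measured on 1-colour Agilent arrays, each mouse on its own array. All mice were 2 months old, on a C57BL/6N background and obstructed, so no unobstructed ureter was available for comparison. KO replicate 3 is labelled female and the other 5 mice male. Which part of Col17a1 was altered, and in which cells, is not given in the labels.

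MHC class II molecules present peptides from endocytosed proteins to CD4+ T cells, and dendritic cells, macrophages and B cells are their main carriers. An alpha and a beta chain assemble in the endoplasmic reticulum with the invariant chain, which blocks the groove and directs the complex to endosomes, where cathepsins trim the invariant chain to a short fragment. H2-DM, a heterodimer, then exchanges that fragment for peptide, and H2-DO restrains H2-DM. The coactivator CIITA switches class II genes on through shared promoter elements: the X box, bound by the RFX complex, and the Y box, bound by NF-Y.

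The shared promoter elements are shown first, and their part in the differences described below was not tested. RefSeq windows (GRCm38.p6, from 250 bases before to 50 bases after each annotated start) matched 7 of the 10 genes; H2-Ab1, Cd74 and Ciita had no entry. The motifs searched on both strands were TGATTGG for the Y box and GNAAC for the core of the X box, and these letters were chosen after the windows had been read. TGATTGG stood on the gene's own strand in the windows of 6 of the 7 genes, against 7.82% of 32851 windows of all genes on either strand. GNAAC alone, a short string, stood in 84.8% of all windows on either strand. GNAAC followed by TGATTGG after a gap of 20 to 30 bases stood in 5 of the 7, against 0.323% of all windows on either strand and 0.137% on the gene's strand. In the lines below capitals mark those matches, and all are written 5′ to 3′ on the strand of the gene.
H2-Aa (chr17:34287859-34287918, minus strand): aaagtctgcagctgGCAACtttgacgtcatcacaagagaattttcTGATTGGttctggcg
H2-Eb1 (chr17:34305761-34305820, plus strand): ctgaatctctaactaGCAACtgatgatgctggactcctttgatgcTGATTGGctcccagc
H2-DMb1 (chr17:34153083-34153142, plus strand): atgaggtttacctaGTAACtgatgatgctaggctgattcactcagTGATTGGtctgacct
H2-DMb2 (chr17:34145112-34145171, plus strand): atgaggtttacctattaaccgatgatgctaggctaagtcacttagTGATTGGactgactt
H2-Oa (chr17:34092289-34092348, plus strand): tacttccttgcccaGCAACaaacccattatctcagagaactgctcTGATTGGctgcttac
H2-Ob (chr17:34238801-34238860, plus strand): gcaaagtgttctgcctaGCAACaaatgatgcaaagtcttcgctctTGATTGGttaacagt
H2-Eb2 (chr17:34325528-34325587, plus strand): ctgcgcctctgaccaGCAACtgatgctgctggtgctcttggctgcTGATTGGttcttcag

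H2-Eb2, a class II beta chain gene outside the set, is shown for contrast because it carries the same pair of letters and its array value, which was low, differed little between groups. The gap between the matches was 26 bases in H2-Aa, H2-DMb1 and H2-Oa, 25 bases in H2-Eb1 and H2-Eb2, and 23 bases in H2-Ob. H2-DMb2 had TGATTGG alone, and neither of the 2 windows of H2-DMa held it. A match is a string of letters and does not show that a factor was bound in these samples.

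**Figure D1:**
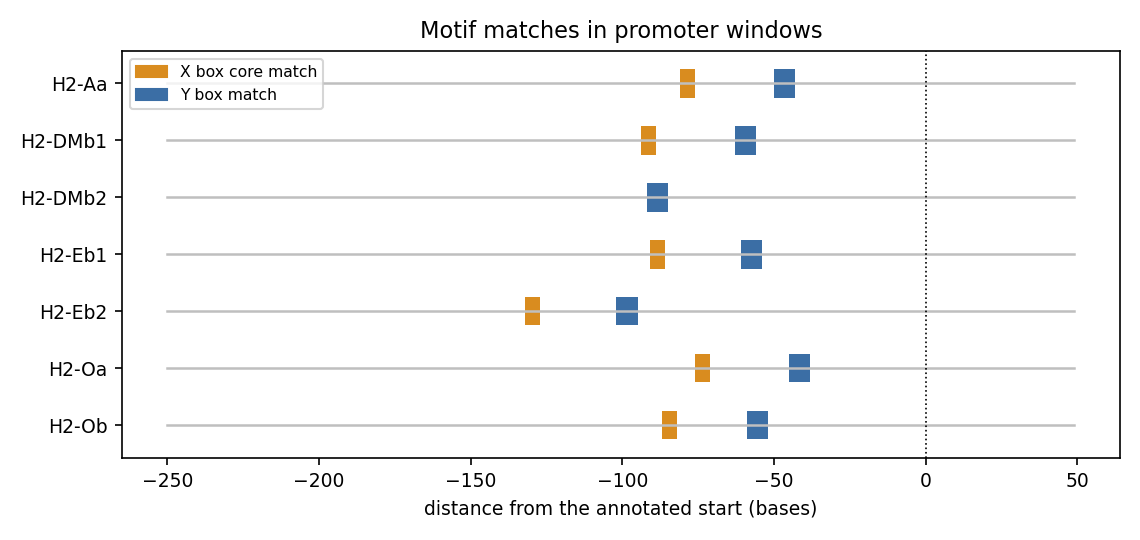
Positions of the X box core and Y box matches (bars) along 7 promoter windows, in bases from the annotated start (dotted line at 0). The Y box match began at positions from -102 to -45, and in the 6 windows with both motifs the X box core lay upstream of it.

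Array depth was similar throughout: the 75th percentile of the processed signal lay between 143.7 and 164.9, and between 35482 and 36568 of the probes were well above background on each array. Values below are log2 processed signals minus that percentile of the same array, so 0 is the level of a probe at the 75th percentile; probes differ in how strongly they hybridise, so levels are compared between arrays and never between genes. Col17a1, which encodes collagen XVII of hemidesmosomes, had higher values in the group labelled KO: the brighter of its probes differed by 1.65 (standard error 0.48; limma, adjusted p = 0.457), and neither probe need lie in the altered part. Because its direction goes against the label, the group is called KO-labelled, and every direction rests on the labels. Kidney tubule transcripts stood apart on WT replicate 2, with a list value of 1.74 against -0.48 to -0.22 on the other 5 arrays.

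All 10 class II genes had lower values in KO-labelled than in WT ureters, with differences between -1.65 (Ciita) and -0.58 (H2-DMb2) and a median of -1.27, where the median over all 22260 genes was -0.00081. In each of the 10, every KO-labelled array lay below every WT array, which was true of 8.13% of all genes. The classical chains and the invariant chain were about equally lower, by 2.49-fold to 2.61-fold, and the H2-DM genes had log2 differences of -1.08 to -0.58. All 10 were lower by any amount, against 50.2% of all genes, and 0 of 10 had every KO-labelled array above every WT array, against 7.28%. No class II gene passed the adjusted threshold of 0.05 (limma with Benjamini-Hochberg adjustment, adjusted p from 0.398 to 0.488), and neither did any other gene (percent called 0). At an unadjusted p under 0.05 all 10 were lower, against 4.71% of all genes (9.06% in either direction), 6 of 10 at a p under 0.01, against 0.97%, and 8 of 10 were lower by at least 1 in log2, against 0.804%. In whole tissue, fewer cells of a type and less RNA per cell cannot be told apart.

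H2-Ab1 encodes the beta chain of I-A, the class II molecule that this strain assembles. Its brightest probe had values of 7.06, 6.99 and 6.88 in WT replicates 1 to 3, and of 5.81, 5.02 and 6.12 in KO-labelled replicates 1 to 3. The WT values lay close together, whereas the KO-labelled values spread widely, with replicate 2 lowest and replicate 3, the female, highest. The group means were 6.98 ± 0.09 and 5.65 ± 0.57 (SD, n = 3 each), giving a difference of -1.33 (standard error 0.28; limma, adjusted p = 0.418).

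H2-Aa encodes the partner alpha chain of I-A. Its single probe read 3.13, 2.71 and 2.85 in the WT mice, against 1.89, 0.86 and 1.98 in the KO-labelled mice. The difference of -1.31 had a standard error of 0.32 (limma, adjusted p = 0.435). H2-Eb1 encodes the beta chain of I-E, whose alpha chain gene, H2-Ea, is defective in C57BL/6 mice. No array of the 6 had the H2-Ea probe well above background, while H2-Eb1 was well above it on all of them. H2-Eb1 had values of 6.73, 6.50 and 6.44 in WT and of 5.43, 4.49 and 5.59 in KO-labelled ureters, a difference of -1.38 (standard error 0.30; limma, adjusted p = 0.418). The lowest WT value of H2-Eb1 exceeded the highest KO-labelled value by 0.85, the widest such gap among the 10 genes.

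Cd74, the invariant chain, is encoded on chromosome 18, away from the class II region of chromosome 17. It had values of 6.33, 6.27 and 6.10 in WT and of 5.04, 4.27 and 5.36 in KO-labelled ureters. It differed by -1.34 (standard error 0.28; limma, adjusted p = 0.418), close to the -1.33 of H2-Ab1. On each array the ratio of H2-Ab1 to Cd74 stayed within -0.03 and 0.04 (log2) of its WT mean, including the array on which both were lowest.

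Ciita, the transactivator, had the widest spread within both groups. Its brightest probe read 2.72, 2.13 and 1.77 in WT and 0.75, -0.45 and 1.36 in KO-labelled ureters, so the gap between the groups was 0.41. The difference of -1.65 was the lowest of the 10 genes and had a standard error of 0.49 (limma, adjusted p = 0.458). Its probe at 10525904 to 10525963 on chromosome 16 (mm9, the build of the array design) differed by -1.33, and the probe at 10492271 to 10492327, which was designed on another transcript record and was well above background on 2 of 3 KO-labelled arrays, by -1.46. For the Ciita probe at 10512788 to 10512847 no array was well above background.

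**Figure D2:**
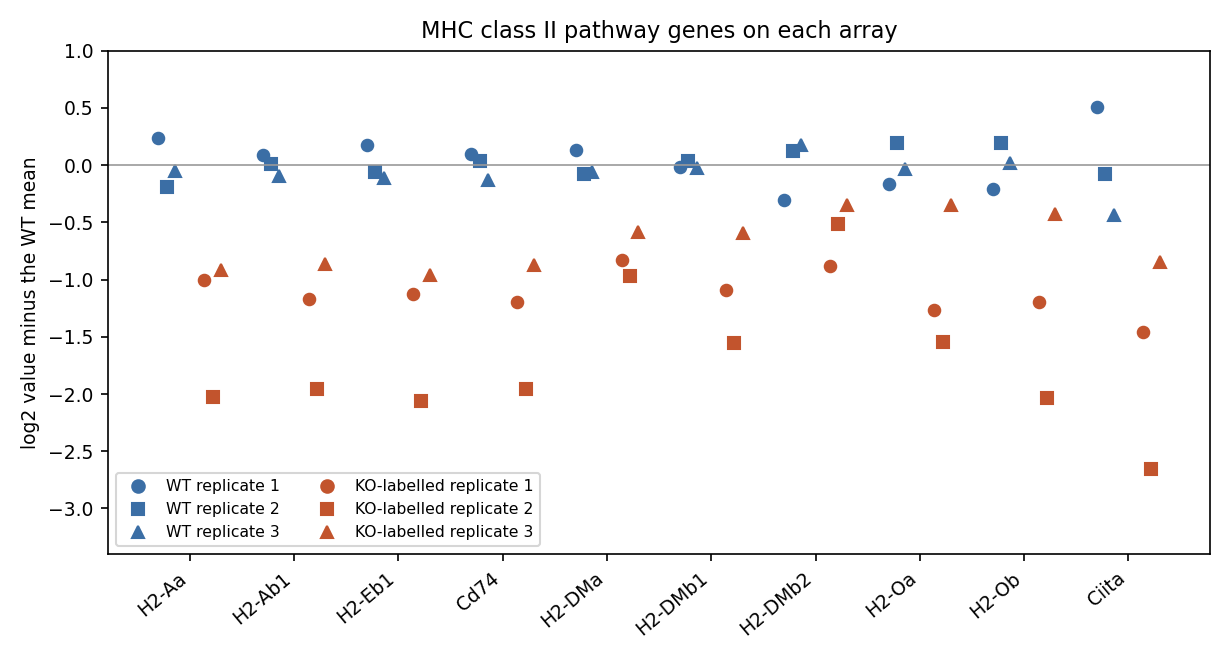
Log2 value of each class II gene on each array, minus that gene's WT mean (vertical axis), for 3 WT and 3 KO-labelled arrays at the brightest probe of the gene. All KO-labelled points lie below all WT points of the same gene; replicate 2 is the lowest array for 9 of 10 genes and replicate 3 the highest KO-labelled array for all 10.

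The peptide exchange factor H2-DM is built of an alpha chain, H2-DMa, and a beta chain from H2-DMb1 or H2-DMb2. H2-DMa had values of 1.63, 1.42 and 1.44 in WT and of 0.67, 0.52 and 0.91 in KO-labelled ureters, a difference of -0.80 (standard error 0.14; limma, adjusted p = 0.398, the lowest of the 10). H2-DMb1 had nearly identical WT values, 3.34, 3.39 and 3.33, against 2.27, 1.80 and 2.76 in KO-labelled ureters. It differed by -1.08 (standard error 0.24; limma, adjusted p = 0.418).

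H2-DMb2 differed least, by -0.58 (standard error 0.20; limma, adjusted p = 0.488). Its values were -3.44, -3.01 and -2.96 in WT and -4.02, -3.65 and -3.49 in KO-labelled ureters, and the gap between WT replicate 1 and KO-labelled replicate 3 was 0.05. H2-DMb2 was the single gene of the set for which KO-labelled replicate 1, not replicate 2, was lowest. H2-DMb1 and H2-DMb2 are close paralogs, and how far each probe reads the other transcript was not tested. With normexp background correction the H2-DMb2 difference was -0.15.

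H2-DO, which restrains H2-DM and is known mainly from B cells and some dendritic cells, is built of H2-Oa and H2-Ob. H2-Oa had values of -0.54, -0.19 and -0.41 in WT and of -1.65, -1.92 and -0.73 in KO-labelled ureters, a difference of -1.05 (standard error 0.31; limma, adjusted p = 0.463). H2-Ob had values of -2.72, -2.32 and -2.50 in WT and of -3.71, -4.55 and -2.94 in KO-labelled ureters, a difference of -1.22 (standard error 0.39; limma, adjusted p = 0.477). KO-labelled replicate 3 lay below the lowest WT array by 0.19 for H2-Oa and by 0.21 for H2-Ob. With normexp background correction the differences were -0.60 for H2-Oa and -0.31 for H2-Ob, and without KO-labelled replicate 2 that of H2-Ob was -0.81.

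Probes of the same gene gave like differences. Of the 21 probes, 17 passed the signal filter (well above background throughout at least 1 group) and the other 4 did not reach that level on a single array. Of the 17, 3 (a pair for H2-Ob and 1 for Ciita) were not well above background on every KO-labelled array and passed through the WT group, where they are high, so they are left out of the next counts. The other 14 were well above background on all 6 arrays. Each of these 14 had KO-labelled values below all WT values, as did 8.55% of the 35069 probes that passed, and an unadjusted p under 0.05 in the lower direction (limma), as did 5.11%. No probe passed after adjustment over all probes (percent called 0). The 4 probes of H2-Ab1 span 2007 bases of chromosome 17 (34404357 to 34406363, mm9), and their differences were -1.33, -1.34, -1.36 and -1.33, with 51 bases shared by the pair nearest the 3′ end. H2-Ob had 3 probes that passed, with measured differences of -1.22, -1.50 and -1.61. The dimmer 2 of them were not well above background on any KO-labelled array, so there only bounds hold: WT values were at least 1.43-fold and at least 1.46-fold higher, from the WT mean against the mean, over KO-labelled arrays, of the higher of the lowest signal well above background and the probe's own.

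**Figure D3:**
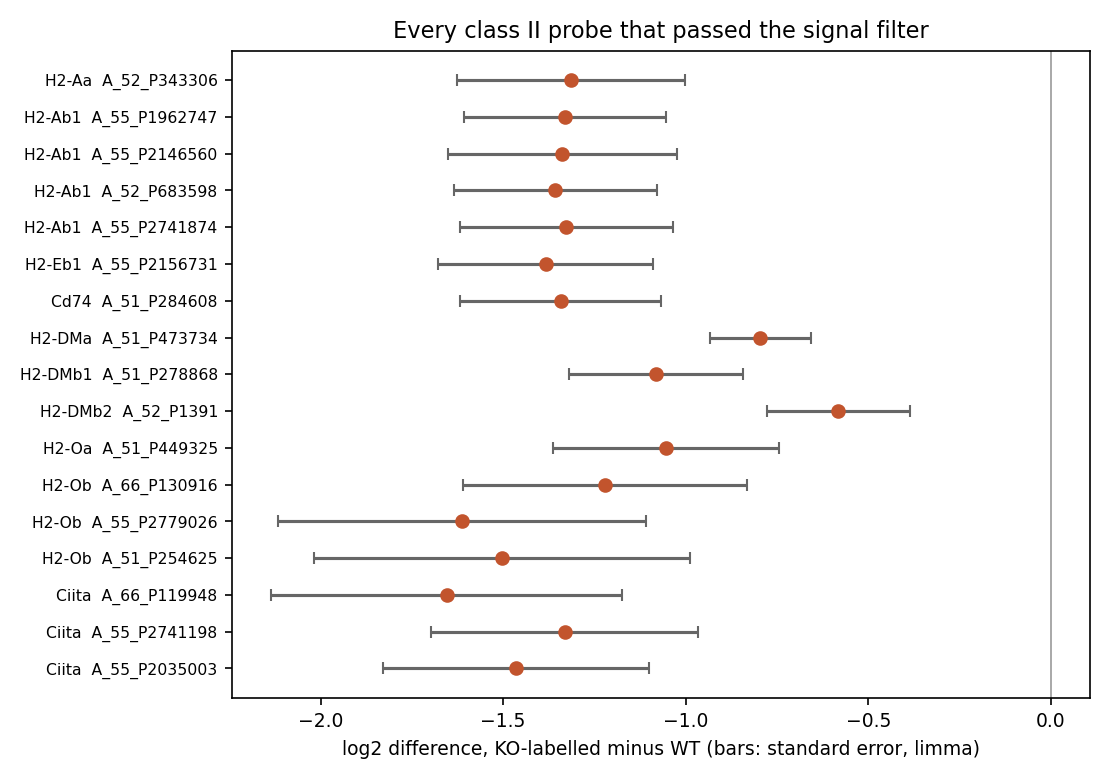
Log2 difference, KO-labelled minus WT (horizontal axis), with its standard error from limma (bars), for the 17 class II probes that passed the signal filter, 3 arrays a group. The 4 probes of H2-Ab1 coincide near -1.33, and H2-DMb2 and H2-DMa lie closest to 0.

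Whether the genes differed from each other in size of response was tested on the log2 ratio of H2-Ab1 to each other gene, with exact two-sided permutation tests over the 6 arrays for 9 pairs. The smallest p this design allows is 0.1, so no pair could pass. The differences of H2-Aa, H2-Eb1 and Cd74 lay within 0.06 of that of H2-Ab1 (exact p = 0.9, 0.5 and 0.7; adjusted p = 0.9, 0.75 and 0.788). For the H2-DM genes every KO-labelled ratio lay below every WT ratio, and the difference of H2-Ab1 minus that of the other gene was -0.54 for H2-DMa, -0.25 for H2-DMb1 and -0.75 for H2-DMb2 (exact p = 0.1 for each pair, the smallest possible; adjusted p = 0.3). Ratios to H2-Oa, H2-Ob and Ciita overlapped between groups, at -0.28, -0.11 and 0.32 (exact p = 0.3, 0.6 and 0.5; adjusted p = 0.675, 0.771 and 0.75). Relative to its WT mean, the ratio of H2-Ab1 to H2-DMa was -0.34, -0.99 and -0.27 on KO-labelled replicates 1, 2 and 3.

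The factors that bind the class II promoters had a median difference near 0. Of 7 genes for the RFX complex, NF-Y and CREB, 2 were lower at an unadjusted p under 0.05, against 4.71% of all genes. At that level 0 were higher, 0 passed after adjustment, and the median over the 7 was -0.03. In those 2, Rfxank and Creb1, every KO-labelled array lay below every WT array, which was true of 8.13% of all genes. Rfxank, an RFX subunit, had values of 0.75, 0.27 and 0.20 in WT and of -0.37, -0.51 and -0.05 in KO-labelled ureters (difference -0.72, limma, adjusted p = 0.453). Creb1, a factor of the X box region, differed by -0.28 (limma, adjusted p = 0.513), while the NF-Y subunit Nfyc and the RFX subunit Rfxap differed by 0.03 and 0.04. Rfx5, the DNA-binding RFX subunit, differed by -0.05.

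Interferon-gamma is the best known inducer of Ciita outside the professional antigen-presenting cells. Of 11 measured genes of its signalling and of related transcription factors, 0 passed after adjustment, and the median was -0.12. At an unadjusted p under 0.05, 1 was lower and 1 higher, against 4.71% of all genes lower and 9.06% in either direction. Ifng itself was well above background on 1 of 6 arrays and was not tested. Irf1, which carries the interferon-gamma signal to Ciita, differed by -0.12 with overlapping groups. Irf8, a factor of dendritic cells and macrophages, differed by -0.64 (limma, adjusted p = 0.477) without overlap. Irf4 was the higher gene: its values were -0.75, -2.16 and -2.39 in WT and -0.83, 0.38 and -0.37 in KO-labelled ureters, so WT replicate 1 overlapped the KO-labelled range (difference 1.49, limma, adjusted p = 0.489). Irf2 and Spi1 differed by -0.30 and -0.40.

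Genes of endosomal processing had lower values as well. All 9 had negative differences, against 50.2% of all genes, 6 of them at an unadjusted p under 0.05, against 4.71%, 0 passed after adjustment, and the median was -0.42. Ifi30, the lysosomal thiol reductase, had values of 3.74, 4.10 and 4.14 in WT and of 3.22, 3.14 and 3.73 in KO-labelled ureters, a difference of -0.63 (limma, adjusted p = 0.474). The lysosomal proteases Ctsb, Ctsd and Ctsz differed by -0.36, -0.57 and -0.51 without overlap. Ctss, the cathepsin that completes invariant chain trimming in most antigen-presenting cells, differed by -0.54 with WT replicate 1 below KO-labelled replicate 3.

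Of 8 co-stimulatory and T cell genes, 0 passed after adjustment, and the median was -0.38. At an unadjusted p under 0.05, 1 was lower, against 4.71% of all genes. That gene was Lag3, a class II receptor, at -0.60 (limma, adjusted p = 0.480). Cd86, Cd80 and Cd40 differed by -0.30, -0.45 and -0.23 with overlapping groups, and Cd4, the T cell coreceptor of class II, by -0.08. The ubiquitin ligases Marchf1 and Marchf8, which shorten the life of class II at the surface, differed by 0.34 and -0.01 with overlapping groups.

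The class II genes other than Cd74 and Ciita lie together on chromosome 17, so neighbouring genes were compared in RefSeq order. Of 20 measured neighbours, 4 were lower and 0 higher at an unadjusted p under 0.05 (4.71% of all genes were lower), 0 passed after adjustment, and the median was -0.23. In 8 of the 20 the KO-labelled values lay below all WT values, against 8.13% of all genes. Brd2, which lies between H2-Oa and H2-DMa, differed by 0.05. Psmb9, Tap1, Psmb8 and Tap2, genes of class I peptide supply that lie between H2-DMb1 and H2-Ob, differed by -0.47, -0.30, -0.40 and -0.33. H2-Eb2, next to H2-Eb1 and with the promoter letters shown above, had values of -3.57, -3.90 and -3.82 in WT and of -4.08, -4.13 and -3.72 in KO-labelled ureters, a difference of -0.21 with overlapping groups (limma, adjusted p = 0.727). Vps52 and Rgl2, outside the class II genes on the side of H2-Oa, differed by -0.40 and -0.36.

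**Figure D4:**
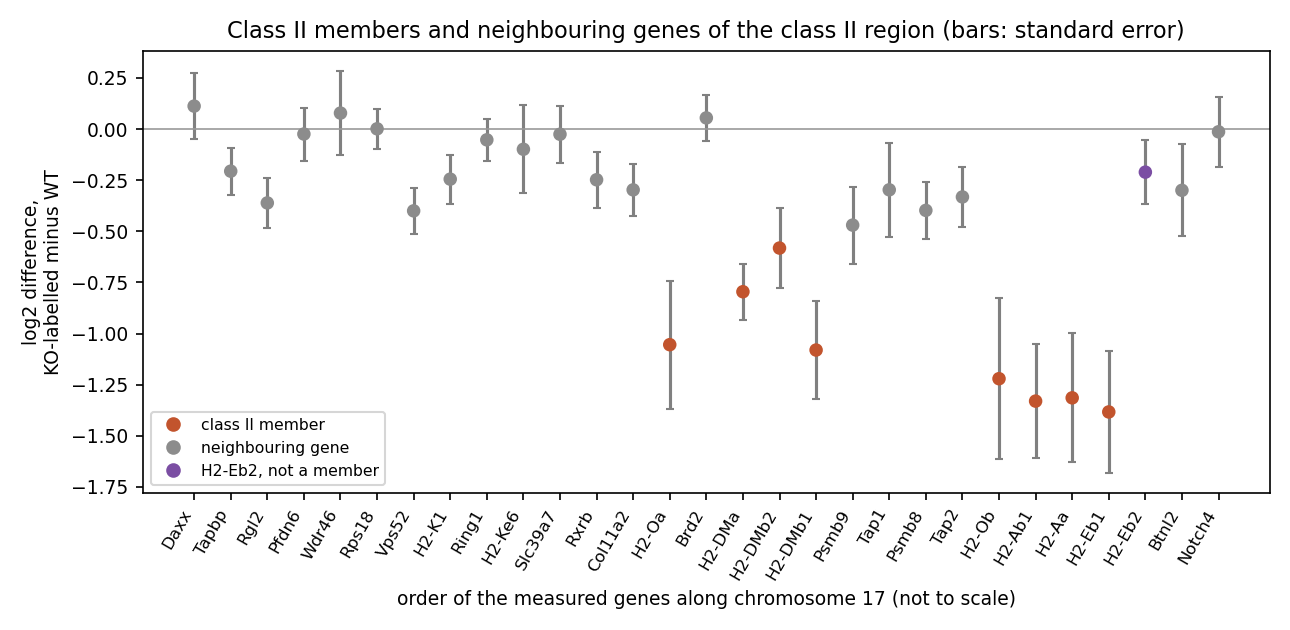
Log2 difference, KO-labelled minus WT, with its standard error from limma (bars), for the measured genes of the class II region in their order along chromosome 17 (evenly spaced, not to scale). The 8 class II members there lie between -1.38 and -0.58, whereas the neighbours among them lie between -0.47 and 0.05.

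Most markers of macrophages and dendritic cells, which carry class II, had lower values alongside the class II genes, and their part in the class II difference was not tested. Over all genes 50.2% were lower by any amount and 4.71% lower at an unadjusted p under 0.05. Of 14 macrophage markers 12 were lower, 8 at an unadjusted p under 0.05, with a median of -0.54. Their summed linear signal was 668.2 to 757.3 in WT and 461.2 to 614.4 in KO-labelled ureters (in units of the 75th percentile signal). The brightest of them, Lyz2, weighs most in that sum and differed by -0.37. The macrophage markers ranged from Cx3cr1 at -1.19 and Adgre1 at -0.89 to Itgam at 0.17 and Cd163 at 0.19, the 2 higher markers. Of 11 measured dendritic cell markers 10 were lower, 5 at an unadjusted p under 0.05, with a median of -0.55 and summed signals of 82.9 to 86.2 and of 73.9 to 82.0. That sum is mostly Siglech, a marker of plasmacytoid dendritic cells, which differed by -0.08. Without it, a choice made after its value was seen, the sums were 28.8 to 34.7 in WT and 24.7 to 29.4 in KO-labelled ureters, which overlap. The remaining sum is weighted by bright markers of opposite sign, Clec10a at -0.55 and Cd24a, the 1 higher marker, so its overlap need not hold for the others. Clec9a differed by a measured -1.81 but was well above background on 5 of 6 arrays. The other dendritic markers ranged from Cd209a at -1.39, Flt3 at -1.03 and Ccr7 at -1.03 to Zbtb46 at -0.26 and Cd24a at 0.41. Xcr1, a marker of type 1 conventional dendritic cells, was at background on all 6 arrays.

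Of 8 B cell markers, 7 were lower and 0 had an unadjusted p under 0.05, with a median of -0.16 and overlapping sums of 2.63 to 3.74 and of 2.18 to 3.07. Ms4a1, which encodes the B cell surface protein CD20, was well above background on all 6 arrays and differed by -0.05. Of 6 measured T cell markers 3 were lower and 3 higher, with a median of 0.01. Over all 22260 genes, 11091 were higher by any amount and 969 higher at an unadjusted p under 0.05. Urothelial genes had the opposite sign to class II: all 11 were higher, 7 at an unadjusted p under 0.05, with a median of 0.89. Their summed signals were 276.4 to 384.5 in WT and 464.6 to 666.3 in KO-labelled ureters. Smooth muscle markers were also higher in 8 of 8 genes, 0 of them at an unadjusted p under 0.05, with a median of 0.55 and overlapping sums of 307.5 to 498.2 and of 416.1 to 624.4. Median differences were -0.08 over 7 fibroblast markers, 0.10 over 6 endothelial markers and -0.83 over 6 kidney tubule markers, the last with WT replicate 2 high. No marker passed after adjustment.

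Among the KO-labelled mice, the lists of dendritic cell, macrophage, B cell and T cell markers and of region neighbours had the same order of arrays as the class II genes, with replicate 2 lowest and replicate 3 highest. Relative to the WT mean, the median over the 10 class II genes was -1.15, -1.96 and -0.72 on KO-labelled replicates 1, 2 and 3. The median over dendritic cell markers was -0.56, -0.91 and -0.31 on the same arrays, and that over macrophage markers -0.57, -0.70 and -0.20. B cell markers had medians of -0.26, -0.58 and 0.09, T cell markers of -0.03, -0.32 and 0.36, and region neighbours of -0.16, -0.26 and -0.12. Other lists had another order, with replicate 1 lowest: endosomal processing at -0.68, -0.40 and -0.22, and co-stimulatory and T cell genes at -0.61, -0.41 and 0.03. Interferon-gamma signalling was at -0.18, -0.16 and 0.09. How often each order occurs among all genes was not counted.

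**Figure D5:**
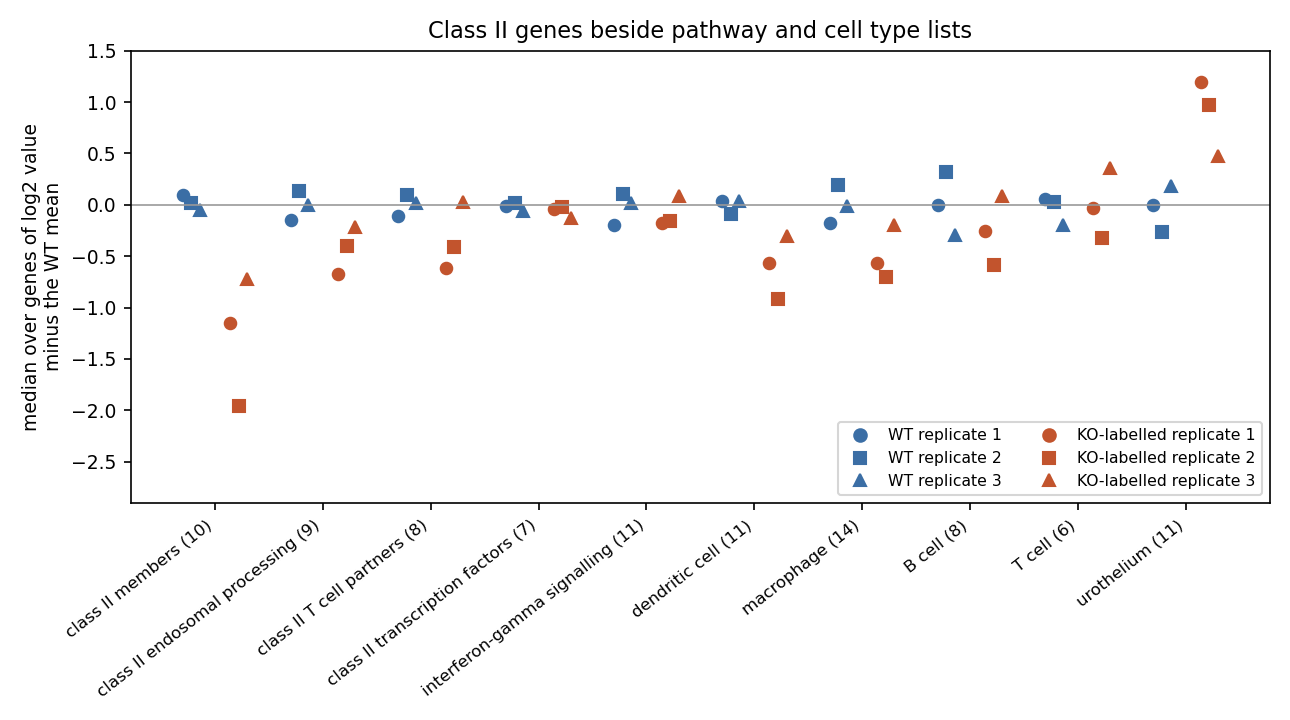
Median over the genes of a list (number measured in brackets) of the log2 value minus the gene's WT mean, per array, for the 10 class II members and 9 pathway and marker lists. Replicate 2 is the lowest and replicate 3 the highest KO-labelled array for class II, dendritic cell, macrophage, B cell and T cell genes. Replicate 1 is the lowest for endosomal processing, T cell partner and interferon-gamma genes. The class II medians are -1.15, -1.96 and -0.72.

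The genes whose profile over the 6 arrays lay closest to the mean of H2-Aa, H2-Ab1, H2-Eb1 and Cd74 were ranked by the root mean square difference in log2, among 15858 genes outside the set that had a RefSeq symbol, were not on a sex chromosome and were well above background on all arrays. Clec4a3 and Clec12a, C-type lectin receptors of myeloid cells, lay at 0.15 and 0.18, and Blnk, an adaptor of B cell receptor signalling also present in macrophages, at 0.17. Next to them came Nupr1l at 0.16, Slamf8 at 0.20 and Ly9 at 0.22, both of the SLAM receptor family, Sfxn2 at 0.22, BC049352 at 0.22, Gm34084 at 0.23 and Stap1 at 0.24. Of the 10 genes named, 2, Blnk and Sfxn2, lie on chromosome 19, as does Col17a1. The share of the candidates on that chromosome was not counted. Within the set, H2-DMb1 lay at 0.20 with 4 outside genes closer, H2-Ob at 0.26 with 15, H2-Oa at 0.31 with 35, Ciita at 0.33 with 53, H2-DMa at 0.37 with 94 and H2-DMb2 at 0.58 with 964. These 10 outside genes were picked for their likeness, so their differences, between -1.42 and -0.96, are a description.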

How the data were processed

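Per the file headers, the authors' deposited intensity values were written by Agilent Feature Extraction 12.0.3.1 with spatial and multiplicative detrending switched on; all 6 arrays shared 1 slide and 1 scan time. Any processing between arrays by the authors is not given here. Outlier spots were left out (unless all spots of a probe were), spots of a probe averaged, and log2 values centred on the 75th percentile of each array. Genes took their brightest probe among those well above background throughout at least 1 group. Genotype was tested with limma 3.58.1 in R 4.3.3 over all 22260 genes (lmFit, eBayes, Benjamini-Hochberg, threshold 0.05), and probes over all 35069. Accessions of 35405 probes matched RefSeq (GRCm38.p6); probe positions are mm9, and exon annotation was not used here. The labels do not say how mice were bred or housed in relation to each other, so p-values measure the spread between these samples, and the number of arrays limits precision.

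The members and lists were chosen with earlier results of these data known. The rule names all members, up to 4 genes of each pathway list with the lowest p (Ctss, Rfx5, Irf1, Cd4, Tap1, Tap2, Brd2 and the marker genes were added for their role after their values were seen) and the 10 genes closest in profile. On simulated data for the KO-labelled against WT comparison (22260 genes, 200 changed), the test recovered 54.6% of genes changed 2-fold and 94.4% of those changed 4-fold. Alternatives covered background correction, normalisation, the dim-probe filter, probe choice, variance model, array weights, the replicate block, sex and left-out arrays. The slide could not be a block.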

Additional observations from a re-analysis of the deposited data

How the results depend on the processing

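Each of the 10 class II genes was lower in the KO-labelled ureters under all 17 alternatives (170 of 170 values). The median difference ranged from -1.54 to -0.90. Not all alternatives could have changed the direction. The dim-probe filters, the variance model and the replicate block left each difference as it was. Every KO-labelled array lay below every WT array in the main analysis, so leaving out arrays could not reverse a difference. The count of class II genes past the threshold was 0 except with array weights, where it was 7 (all but H2-Aa, H2-Ob and Ciita); array weights also gave 498 genes in all, weighting WT replicate 3 at 6.94 and WT replicate 1 at 0.23. Deviations of same-numbered mice had correlations of 0.53, -0.15 and -0.03, which cannot show whether the replicate numbers pair the mice. With the replicate block 1 gene passed over all genes and 0 class II genes did. The median was -1.27, which a block balanced over the groups cannot change. Leaving out each array gave 0 to 1 genes past the threshold. The causes were not tested. Counts without overlap were 9 or 10, and counts at an unadjusted p under 0.05, chosen after the data were seen, 8 to 10. With the sex covariate, which sets aside KO-labelled replicate 3, the median was -1.54, and without KO-labelled replicate 2 it was -0.90. Signal near background limits H2-DMb2 and H2-Ob, and H2-Eb2 outside the set.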
